A study of Mus musculus with 24 samples.

Results

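The genes described here are the cannabinoid receptor CB1 and the main enzymes that make and break down its lipid ligands in the brain. They are the rows of the count table whose gene symbol is Cnr1, Dagla, Daglb, Mgll, Napepld, Faah, Abhd6 or Abhd12, which makes 8 genes of 55414 in the table, and all 8 were among the 14464 genes whose highest count was at least 30. RNA-seq was performed on the visual cortex (V1) of male C57BL/6J mice, aged 8 weeks at the experiment, kept in a reversed light cycle and tested in their dark phase, with littermates assigned at random and 1 library per mouse. Mice were injected with PBS vehicle and kept dark (dark group), injected with PBS and moved into light (light group), injected with 5 mg/kg psilocybin and kept dark (psilocybin-dark group), or injected with 5 mg/kg psilocybin and moved into light (psilocybin-light group). There were 6 mice in each group, and cortex was collected after 2.5 h. Psilocybin is the phosphorylated prodrug of psilocin, which activates serotonin receptors. The groups follow the headings of the study's supplementary count table (libraries 1 to 6 dark, 7 to 12 psilocybin-dark, 13 to 18 light, 19 to 24 psilocybin-light). The sample labels give the same drug but the opposite light exposure for all 24 libraries. Every statement below on light, and on psilocybin in the dark or under light, therefore rests on those headings. With the labels' exposure each light-against-dark difference changes sign, and the comparisons of psilocybin with vehicle in the dark and under light change places.

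Endocannabinoids are lipids that neurons make on demand and that act backward across the synapse. When receptors coupled to the G protein Gq are active in the receiving neuron, phospholipase C releases diacylglycerol, and the diacylglycerol lipases (Dagla, Daglb) turn it into 2-arachidonoylglycerol. This lipid binds CB1 (Cnr1) on the axon terminal and reduces transmitter release, and it is hydrolysed by monoacylglycerol lipase (Mgll) and, to a smaller extent, by Abhd6 and Abhd12. The second ligand, anandamide, can be made by Napepld and is broken down by Faah. In cortex, CB1 is most abundant in basket cells that also make cholecystokinin and is present at lower levels in glutamatergic neurons, and in visual cortex this signalling is known for its part in experience-dependent synaptic plasticity.

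The 8 genes lie on 6 chromosomes. In GRCm39, Cnr1 is at chr4:33922982-33948836 on the plus strand, and Faah is on the same chromosome at chr4:115824342-115875423 on the minus strand. The diacylglycerol lipases are at chr19:10222629-10282320 on the minus strand (Dagla) and chr5:143450236-143496130 on the plus strand (Daglb). Mgll is at chr6:88652108-88805342 on the plus strand, Abhd6 at chr14:14411450-14468795 on the minus strand, Abhd12 at chr2:150674408-150746693 on the minus strand and Napepld at chr5:21867688-21923575 on the minus strand. Genes on the opposite strand share 16.1% of the exonic bases of Daglb (Rac1), 8.03% of Mgll (Gm26588), 5.03% of Napepld (Armc10) and at most 2.16% of the others. Whether the counting used strand is not given in the sources used here, so reads from those stretches cannot be assigned to 1 gene with certainty.

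Cnr1 and Mgll share an exact E-box (CACGTG, read the same on both strands) within 50 bases before a RefSeq transcription start. These are the stretches of 30 bases around it, and a stretch around an EGR motif at the Faah start, with the motif in capitals, from RefSeq promoter windows of build GRCm38.p6 that match GRCm39 exactly once. The E-box begins 49 bases before the start in Cnr1 (GRCm39 chr4:33924583-33924612, plus strand) and 44 bases before it in Mgll (GRCm39 chr6:88701338-88701367, plus strand). The EGR motif (GCGTGGGCG, here on the opposite strand) begins at base 3 of the Faah transcript (GRCm39 chr4:115875100-115875129, minus strand). All 3 stretches lie wholly in annotated exonic sequence of their gene that is not coding, and they are shown because they are the only exact matches among the motifs searched apart from a shorter motif named below.
Cnr1 E-box: aaggctcattaaCACGTGatgggaccacgc
Mgll E-box: gggggccgggcaCACGTGgggccccggcgc
Faah EGR: ctttggagggCGCCCACGCggagctcgtct

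The table of promoter windows (250 bases before to 50 after each start) held 10 windows for 6 of the 8 genes, with none for Dagla and Abhd12. An E-box stood in 7.15% of all 32851 windows and the EGR motif in 0.612%. The cyclic AMP response element TGACGTCA, found in 1.79% of windows, and the AP-1 motif TGANTCA, found in 7.81%, were in none of the 10, and the shorter TGACG, found in 20.8%, was in 1 Mgll window. These are matches of letters on either strand and say nothing of binding.

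The libraries held 13552516 to 17906994 counts each. Several of them stood apart by genes used here as markers of brain regions outside V1. How far V1 cells themselves express the genes on these lists was not tested, so the sums do not measure tissue from other regions alone. These measurements are given first because they touch every comparison with dark. Summed over 8 cerebellar markers, library 6 (dark) had 84328 normalized counts, library 1 (dark) 41455, library 12 (psilocybin-dark) 41170 and library 18 (light) 26102, while the other 20 libraries had 2909 to 6080. Summed over 12 amygdala and hypothalamus markers, dark libraries 1 to 5 had 7564 to 17780, whereas dark library 6 (2215) and the 18 libraries of the other groups (1936 to 3593) were lower. Hippocampal markers summed to 6004 to 9516 in the dark group and to 2974 to 6035 elsewhere, with only library 12 above the lowest dark library. Cortical glutamatergic markers ran the other way, at 12838 (library 1) to 34037 in the dark group against 29976 to 40697 in the rest. In light, psilocybin-dark and psilocybin-light mice against dark, 11, 11 and 11 of the 11 tested amygdala and hypothalamus markers were lower, as were 5, 4 and 7 of 10 hippocampal and 1, 0 and 8 of 8 cerebellar markers, and 5 of 7 glutamatergic markers were higher in each. The hippocampal list was mixed, with 1, 1 and 0 of its markers higher in the same comparisons. No marker on these lists was at 0 in every library. The activity-induced genes Npas4, Fosb, Egr1 and Arc were higher than in dark in all 3 groups, 4 of 4 each. Slc17a7, the vesicular glutamate transporter gene that leads the cortical list, had at least 11156 normalized counts in every library, but the dark group differed from the others in this mixture as well as in treatment, and the part of the mixture in the results below was not tested beyond the settings given. In bulk tissue, fewer cells of a type and less RNA per cell cannot be told apart.

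The question asked of each gene was how light, psilocybin and their combination change its mRNA in V1. Against dark, Cnr1 mRNA fell in all 3 other groups, and every enzyme that passed the test rose. Of the 8 genes, 7 were higher and 1 lower in light mice (edgeR quasi-likelihood test, adjusted p under 0.05 over all genes tested), where 31.9% of all genes were called, 15.4% higher and 16.5% lower. In psilocybin-dark mice 4 were higher and 1 lower, where 24.7% of all genes were called, 11.9% higher and 12.8% lower. In psilocybin-light mice 6 were higher and 1 lower, where 38.4% of all genes were called, 17.4% higher and 21.0% lower. The median log2 fold change of the 8 genes was 0.31, 0.23 and 0.32 in the 3 comparisons, against -0.01, -0.02 and -0.02 over all genes. All 3 comparisons share the same 6 dark mice. Cnr1, Dagla, Mgll and Abhd12 were called in each of the 3. The share of all genes called in all 3 was not counted, so no excess can be read from this. Without libraries 1, 6, 12 and 18, the counts were 7, 4 and 5 of 8, where 43.1%, 38.3% and 48.2% of all genes were called.

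**Figure D1:**
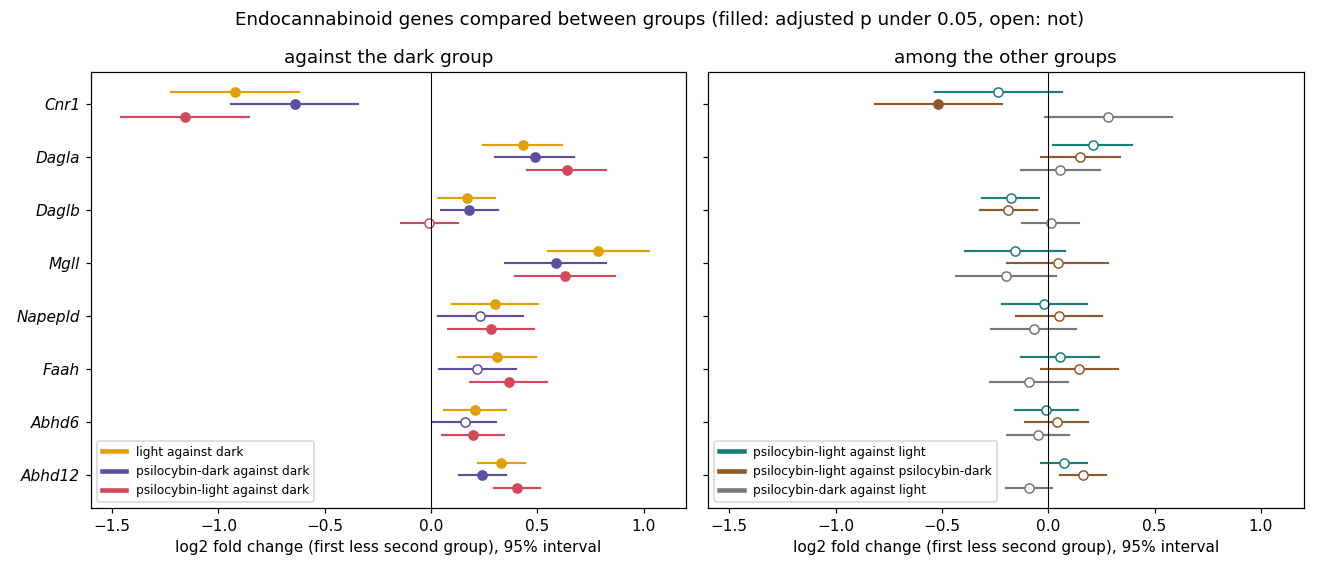
Log2 fold change of each gene (x axis, first group less second, bars 95% intervals) in the 3 comparisons with dark (left) and the 3 comparisons among the other groups (right). Filled points passed an adjusted p of 0.05 (edgeR). Against dark, Cnr1 lies to the left of 0 and every enzyme except Daglb to the right in all 3 comparisons. Cnr1, Dagla, Mgll and Abhd12 are filled in each of these. Among the other groups only Cnr1 in psilocybin-light against psilocybin-dark mice is filled.

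Cnr1 encodes CB1 itself. Its normalized counts, which are counts put on the scale of an average library, were 3964 to 7024 in dark mice (median 4691) and 2258 to 3370 in light mice (median 2531). They were 2464 to 4944 in psilocybin-dark mice (median 3006) and 2139 to 2373 in psilocybin-light mice (median 2272). Every light and every psilocybin-light library lay below every dark library, whereas in the psilocybin-dark group library 12 (4944) lay above the dark median. No overlap in this direction was seen in 4.41% of all genes in the comparison of light with dark and in 7.56% in that of psilocybin-light with dark. Cnr1 fell by 0.92 on the log2 scale in light mice (SE 0.144, 95% interval -1.22 to -0.62, edgeR adjusted p = 5.53e-05, two-sided exact permutation p = 0.00216, the smallest that 6 against 6 mice allow), which is 1.90-fold lower. In psilocybin-dark mice it fell by 0.64 (SE 0.143, interval -0.94 to -0.34, edgeR adjusted p = 0.00232, exact permutation p = 0.0108), 1.56-fold lower. In psilocybin-light mice it fell by 1.16 (SE 0.145, interval -1.46 to -0.86, edgeR adjusted p = 3.01e-06, exact permutation p = 0.00216), 2.23-fold lower.

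The fall of Cnr1 in light and psilocybin-light mice was called in every setting that kept the groups, with log2 fold changes from -1.18 to -0.64 and from -1.42 to -0.85. With hippocampal markers as a covariate it was the only one of the 8 genes still called, at -0.85 in light mice (edgeR adjusted p = 0.0277) and -1.07 in psilocybin-light mice (edgeR adjusted p = 0.0155). The fall in psilocybin-dark mice was no longer called with that covariate (-0.57, edgeR adjusted p = 0.369) or with cortical glutamatergic markers as the covariate (-0.36, edgeR adjusted p = 0.241). No gene of all those tested was called in psilocybin-dark mice with the hippocampal covariate, so a call lost there does not set a gene apart. The library with the highest Cnr1 in the dark, light and psilocybin-dark groups was 6, 18 and 12, in each case also the one highest in cerebellar markers of its group. Over the 24 libraries the Pearson correlation of Cnr1 with the cerebellar score, the mean log2 level of those markers, was 0.77, and 0.72 after group means were removed. Without libraries 1, 6, 12 and 18, Cnr1 was still lower in light mice (-0.88, edgeR adjusted p = 2.25e-07).

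**Figure D2:**
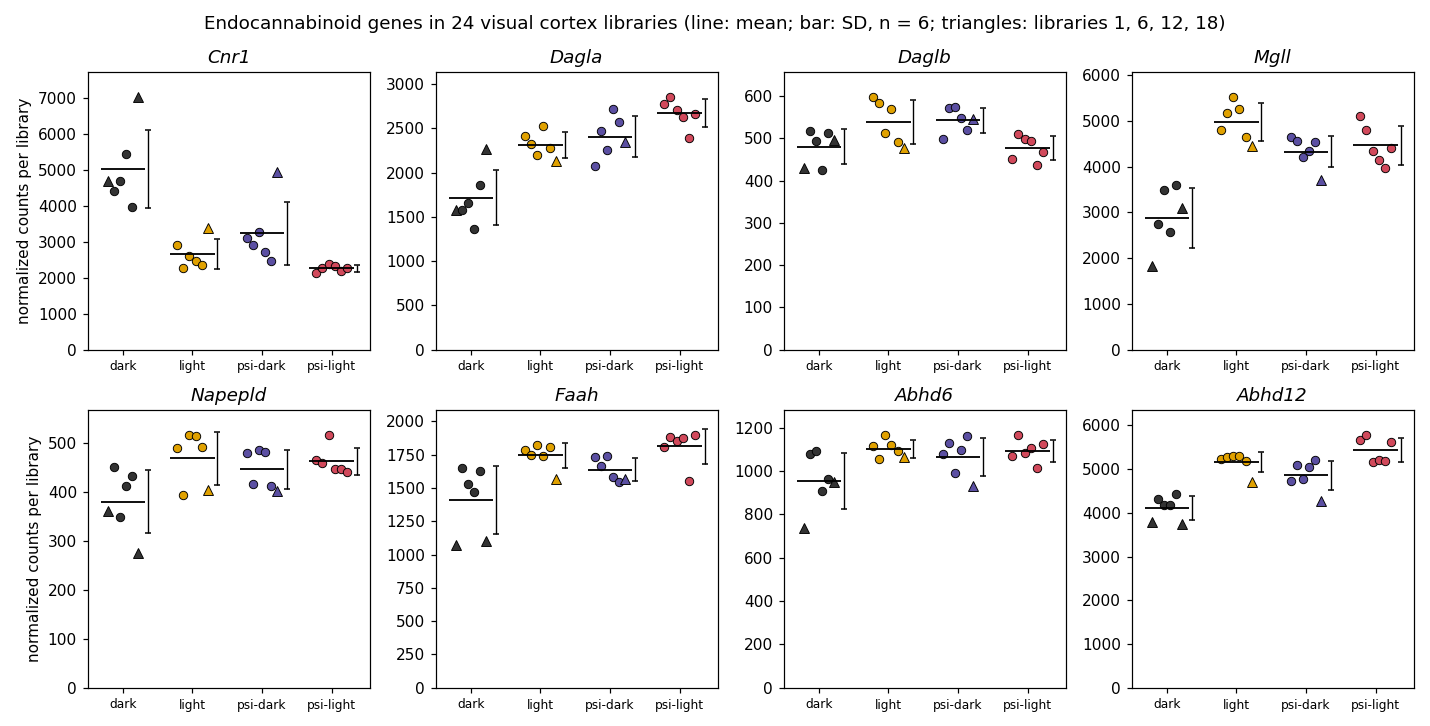
Normalized counts (y axis, counts after scaling for library size) of each gene in each of the 24 libraries, by group, with the mean (line) and SD (bar, n = 6). Triangles are libraries 1, 6, 12 and 18, which are highest in cerebellar markers; Cnr1 of every light and psilocybin-light mouse is below the lowest dark mouse (3964), and Mgll of every mouse outside the dark group is above the highest dark mouse (3588).

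Cnr1 was also the gene of the 8 that passed the test between mice given psilocybin in light and in dark. In this comparison 1 of 8 genes was called. Of all genes tested, 6.38% were called in either direction and 3.78% were called lower. It fell by 0.52 on the log2 scale in psilocybin-light mice (SE 0.143, interval -0.82 to -0.22, edgeR adjusted p = 0.0313, exact permutation p = 0.00216), 1.43-fold lower, and the highest psilocybin-light library (2373) was below the lowest psilocybin-dark library (2464). No overlap in this direction was found for 3.80% of all genes. The size of the difference rests partly on library 12. Without it the fall was 0.35 (edgeR adjusted p = 0.0772). The call was kept in 17 of 24 fits that each left out 1 library, and was also lost without psilocybin-dark library 9 or psilocybin-light library 19, 20, 22, 23 or 24, at -0.52 to -0.50. It was lost with no filter on low counts as well (edgeR adjusted p = 0.0585), and without libraries 1, 6, 12 and 18 together the fall was 0.34 (edgeR adjusted p = 0.00495). Abhd12 at 0.16 (edgeR adjusted p = 0.0632, exact permutation p = 0.00866) and Daglb at -0.19 (edgeR adjusted p = 0.0871, exact permutation p = 0.00649) did not pass, and were called in 7 and 4 of 14 other settings. The spread of Cnr1 among psilocybin-light mice was the smallest of the 4 groups, with an SD of 87.4 around a mean of 2257, against 415 in light, 886 in psilocybin-dark and 1084 in dark mice.

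Dagla encodes the diacylglycerol lipase that makes most 2-arachidonoylglycerol in the adult brain. Its normalized counts ranged from 1359 to 2263 in dark mice (median 1619), from 2137 to 2532 in light mice (median 2299), from 2073 to 2722 in psilocybin-dark mice (median 2408) and from 2389 to 2853 in psilocybin-light mice (median 2688). Every psilocybin-light library lay above every dark library, as for 8.28% of all genes, and the overlap with the other 2 groups came from library 6, since the remaining dark libraries reached 1865. Dagla rose by a log2 fold change of 0.43 in light mice (SE 0.0886, edgeR adjusted p = 8.08e-04, exact permutation p = 0.00649), 0.49 in psilocybin-dark mice (SE 0.0886, edgeR adjusted p = 4.07e-04, exact permutation p = 0.00649) and 0.64 in psilocybin-light mice (SE 0.0887, edgeR adjusted p = 1.03e-05, exact permutation p = 0.00216). Without dark libraries 1 and 6 the rises were 0.52, 0.58 and 0.73. With hippocampal markers as a covariate they were 0.05, 0.11 and 0.18, and with amygdala and hypothalamus markers 0.01, 0.06 and 0.20, none of them called. Dagla was lowest where those markers were highest, with correlations of -0.93 with each of the 2 scores over 24 libraries and of -0.76 and -0.84 after group means were removed.

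Daglb, the second diacylglycerol lipase, is the form that prevails in microglia. Per kilobase of annotated exon it was the least abundant of the 8 genes, although Napepld had a lower mean normalized count in each group. Daglb moved little against dark. Its normalized counts ranged from 425 to 519 in dark, 476 to 598 in light, 499 to 574 in psilocybin-dark and 438 to 510 in psilocybin-light mice, so that all groups overlapped. The log2 fold change against dark was 0.17 in light mice (SE 0.0644, edgeR adjusted p = 0.0496, exact permutation p = 0.0671) and 0.18 in psilocybin-dark mice (SE 0.0644, edgeR adjusted p = 0.0447, exact permutation p = 0.00866). Both calls sat at the threshold and held in only 9 and 14 of the 24 fits that each left out 1 library. In psilocybin-light mice the value was -0.01 (95% interval -0.14 to 0.13, edgeR adjusted p = 0.929).

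Mgll encodes monoacylglycerol lipase, the main enzyme that ends the action of 2-arachidonoylglycerol. Its normalized counts were 1826 to 3588 in dark mice (median 2915) and 4449 to 5520 in light mice (median 4986). They were 3699 to 4643 in psilocybin-dark mice (median 4436) and 3963 to 5117 in psilocybin-light mice (median 4375). All 18 libraries of the other groups lay above all 6 dark libraries. This lack of overlap, upward, held for 5.59% of all genes in light, 3.13% in psilocybin-dark and 8.28% in psilocybin-light mice. Mgll rose by a log2 fold change of 0.79 in light mice (SE 0.114, 95% interval 0.55 to 1.02, edgeR adjusted p = 2.52e-05), 1.72-fold. It rose by 0.59 in psilocybin-dark mice (SE 0.114, interval 0.35 to 0.82, edgeR adjusted p = 7.04e-04), 1.50-fold, and by 0.63 in psilocybin-light mice (SE 0.114, interval 0.39 to 0.87, edgeR adjusted p = 1.63e-04), 1.55-fold. The exact permutation p was 0.00216 in each. With cortical glutamatergic markers as a covariate the values were 0.27, 0.08 and 0.16, of which only the rise in light mice was called. None was called with hippocampal markers (0.37, 0.17 and 0.13, edgeR adjusted p = 0.187, 0.763 and 0.748) or with amygdala and hypothalamus markers (0.38, 0.17 and 0.20, edgeR adjusted p = 0.143, 0.585 and 0.435). Over the 24 libraries Mgll followed the score of the cortical glutamatergic markers with a correlation of 0.95, and 0.91 after group means were removed.

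Abhd6 and Abhd12 are serine hydrolases that account for a smaller share of 2-arachidonoylglycerol hydrolysis, and loss of ABHD12 causes a neurodegenerative disease in people. Abhd12 ranged from 3749 to 4437 normalized counts in dark mice (median 4181), 4715 to 5303 in light mice (median 5251), 4277 to 5220 in psilocybin-dark mice (median 4908) and 5154 to 5773 in psilocybin-light mice (median 5421). Only library 12 (4277) fell among the dark libraries, and the light and psilocybin-light groups lay wholly above dark, as for 5.59% and 8.28% of all genes. Abhd12 rose by a log2 fold change of 0.33 in light mice (SE 0.0521, edgeR adjusted p = 6.10e-05), 0.24 in psilocybin-dark mice (SE 0.0521, edgeR adjusted p = 0.00177) and 0.40 in psilocybin-light mice (SE 0.0522, edgeR adjusted p = 4.28e-06). These calls held in all 24 fits that each left out 1 library, and none was called with hippocampal markers as a covariate. Abhd6 changed less, from a range of 737 to 1093 in dark mice to 1056 to 1164 in light, 932 to 1160 in psilocybin-dark and 1015 to 1163 in psilocybin-light mice, with all groups overlapping. Its log2 fold change was 0.21 in light mice (edgeR adjusted p = 0.0286), 0.16 in psilocybin-dark mice (edgeR adjusted p = 0.108) and 0.20 in psilocybin-light mice (edgeR adjusted p = 0.0311). Without dark libraries 1 and 6, Abhd6 was called in none of the 3 comparisons.

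The anandamide pair showed smaller differences. Napepld, a phospholipase D that releases anandamide and related N-acylethanolamines, ranged from 276 to 451 normalized counts in dark, 393 to 516 in light, 401 to 487 in psilocybin-dark and 441 to 515 in psilocybin-light mice. It rose by a log2 fold change of 0.30 in light mice (SE 0.0966, edgeR adjusted p = 0.0199) and 0.28 in psilocybin-light mice (SE 0.0966, edgeR adjusted p = 0.0241), and the value of 0.23 in psilocybin-dark mice did not pass (95% interval 0.03 to 0.43, edgeR adjusted p = 0.0830). Faah, which hydrolyses anandamide, ranged from 1070 to 1647 in dark, 1568 to 1819 in light, 1542 to 1738 in psilocybin-dark and 1553 to 1894 in psilocybin-light mice. It rose by 0.31 in light mice (SE 0.0875, edgeR adjusted p = 0.00916) and 0.36 in psilocybin-light mice (SE 0.0875, edgeR adjusted p = 0.00220), and the value of 0.22 in psilocybin-dark mice did not pass (interval 0.04 to 0.40, edgeR adjusted p = 0.0721). The groups overlapped for both genes. The lowest Faah counts were those of dark libraries 1 (1070) and 6 (1104), the lowest Napepld count that of library 6 (276), and without these 2 libraries Faah was still called in light (0.16) and psilocybin-light mice (0.22), while Napepld was called in neither. With cortical glutamatergic markers as a covariate Faah was at 0.0050 and 0.088 (edgeR adjusted p = 0.978 and 0.530), and with amygdala and hypothalamus markers at 0.40 and 0.46 (edgeR adjusted p = 0.0990 and 0.0538), none called. Over 24 libraries Faah correlated with the GABAergic score at -0.90, the astrocyte score at -0.82 and the glutamatergic score at 0.81.

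The effect of the drug under light was read from psilocybin-light against light mice. Of the 8 genes, 0 were called in psilocybin-light against light mice by edgeR, where 0.608% of all genes were called. DESeq2 also called 0. Before adjustment 1402 of all 14464 genes tested had an edgeR p under 0.05, and 2 of the 8 were among them. These were Dagla at 0.21 (95% interval 0.02 to 0.39, edgeR adjusted p = 0.421, exact permutation p = 0.00649) and Daglb at -0.18 (interval -0.31 to -0.04, edgeR adjusted p = 0.304, exact permutation p = 0.0346). Cnr1 was at -0.23 (interval -0.53 to 0.06, edgeR adjusted p = 0.668, exact permutation p = 0.0195). Mgll differed by -0.16 (interval -0.39 to 0.08, edgeR adjusted p = 0.750). Of the 8 genes, 0 were called by edgeR in psilocybin-dark against light mice as well, where 0.456% of all genes were called. Before adjustment also 0 of the 8 had an edgeR p under 0.05 in this comparison, against 2076 of all 14464 genes tested. There Cnr1 was at 0.28 (interval -0.02 to 0.58) and Mgll at -0.20 (interval -0.44 to 0.04, exact permutation p = 0.0130). A difference that misses the threshold does not show that the levels were equal.

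The interaction asks whether light and psilocybin together differ from the sum of each alone on the log2 scale. It was negative for Mgll at -0.74 (SE 0.160, 95% interval -1.08 to -0.41, edgeR adjusted p = 0.00771) and for Daglb at -0.36 (SE 0.0912, interval -0.55 to -0.17, edgeR adjusted p = 0.0188), 2 of 8 genes, where 8.75% of all genes were called, 4.86% negative. For Mgll, the rises of 0.79 with light and 0.59 with psilocybin stood beside 0.63 with both. For Daglb, the rises of 0.17 and 0.18 stood beside -0.01 with both. The values for the other genes were 0.41 for Cnr1 and between -0.28 and -0.16 for Dagla, Napepld, Faah, Abhd6 and Abhd12, none called. Tissue markers carried an interaction too: 8 of 11 amygdala and hypothalamus markers were called positive (list median 2.77) and 4 of 7 cortical glutamatergic markers negative (list median -1.19). With hippocampal markers as a covariate the interaction was -0.42 for Mgll and -0.24 for Daglb, and with cortical glutamatergic markers -0.18 and -0.16, none called. The hippocampal covariate left no called interaction among all genes tested, so a call lost with it does not set a gene apart.

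The balance between the main synthetic and the main hydrolytic enzyme of 2-arachidonoylglycerol was taken as the log2 ratio of Dagla to Mgll counts, which does not depend on library scaling. It was -0.73 ± 0.33 in dark, -1.10 ± 0.12 in light, -0.85 ± 0.19 in psilocybin-dark and -0.74 ± 0.078 in psilocybin-light mice (mean ± SD, n = 6). All 6 psilocybin-light libraries (-0.88 to -0.65) lay above all 6 light libraries (-1.33 to -0.99). This difference was 0.37 (two-sided exact permutation p = 0.00216, 0.0130 adjusted over 6 comparisons) and kept its call in all 24 fits that each left out 1 library, at 0.32 to 0.39. Neither gene alone was called between these groups (edgeR adjusted p = 0.421 for Dagla and 0.750 for Mgll). The ratio was not tested with a marker covariate, and how often ratios of other genes separate these groups was not counted. Light mice were also 0.37 below dark mice (exact permutation p = 0.0108, 0.0325 adjusted), but this rested on dark libraries 1 (-0.22) and 6 (-0.45), without which the difference was 0.17 in the same direction and not called. Psilocybin-light and dark mice differed by -0.0042 (exact permutation p = 0.981), and without libraries 1 and 6 the ratio was 0.20 higher in psilocybin-light mice.

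**Figure D3:**
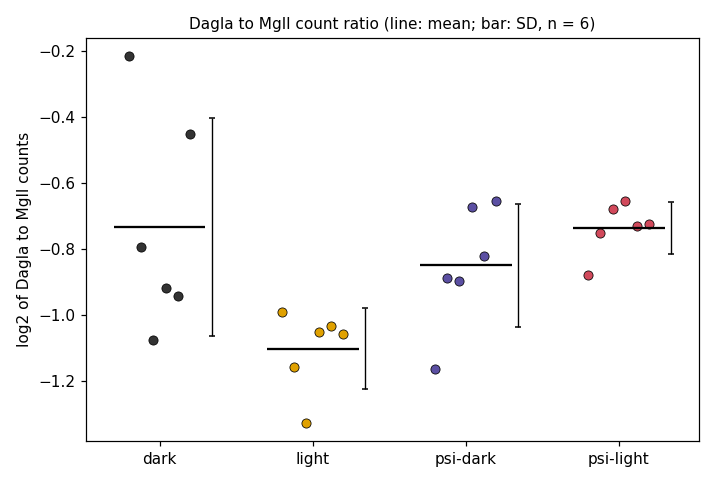
Log2 ratio of Dagla to Mgll counts (y axis) in each library by group, with the mean (line) and SD (bar, n = 6). Psilocybin-light libraries (-0.88 to -0.65) do not overlap light libraries (-1.33 to -0.99), and the dark group is spread from -1.07 to -0.22.

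Levels of different genes were compared in CPM (counts scaled to a common library total) per kilobase of annotated exon. Over the 24 libraries Mgll was the most abundant at 41.9 ± 9.15 (mean ± SD), followed by Abhd12 at 22.4 ± 2.63, Cnr1 at 21.8 ± 8.50, Dagla at 13.8 ± 2.51, Abhd6 at 9.36 ± 0.878, Faah at 9.29 ± 1.21, Napepld at 3.75 ± 0.496 and Daglb at 1.90 ± 0.181. Abhd12 and Cnr1, and Abhd6 and Faah, are neighbours that differ by less than their SD. The order changed with group at the top: in dark mice Cnr1 (33.4 ± 7.18) and Mgll (29.1 ± 6.61) differed by less than their SD, whereas in light mice Mgll stood at 50.1 ± 4.11 and Cnr1 at 17.6 ± 2.75. In psilocybin-light mice the same levels were 45.0 ± 4.31 for Mgll and 15.0 ± 0.579 for Cnr1. The coefficient of variation over all libraries was 38.9% for Cnr1, 21.8% for Mgll and 18.1% for Dagla, and 9.38% to 13.2% for the other 5 genes.

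Across libraries, Cnr1 ran against the enzymes. Its correlation with the other 7 genes over 24 libraries was between -0.16 (Daglb) and -0.95 (Abhd12). After group means were removed it was -0.78 with Abhd12, but 0.02 with Dagla, -0.09 with Daglb and -0.28 with Mgll. With Abhd6, Faah and Napepld it was then -0.34, -0.36 and -0.45. Mgll moved with Abhd12 (0.84), Abhd6 (0.82), Faah (0.77) and Dagla (0.76). Among 11111 genes with a mean normalized count of at least 100, those whose log2 pattern over the 24 libraries was most like Cnr1 were Ust (r = 0.97), Nomo1 (0.95) and Unc5c (0.95). Most like Mgll were Tspan7, Incenp and Adap1 (each 0.97), among those most like Dagla were Mrm1 (0.95) and Osbp2 (0.94), and most like Abhd12 were Actr1b, Rab35 and Pantr1 (0.97, 0.96 and 0.96). For Faah they were Stk32c, Crip2 and Tnfaip8l1 (each 0.95), for Abhd6 Ttc9b (0.91), Zfp365 (0.90) and Pkig (0.90), for Napepld Gucy1a1 (0.91), Rasgrf2 (0.90) and Ajap1 (0.90), and for Daglb they included Flrt1 (0.81) and Lmtk2 (0.80). These correlations share the group differences and the tissue mixture of the libraries and are given as a description.

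**Figure D4:**
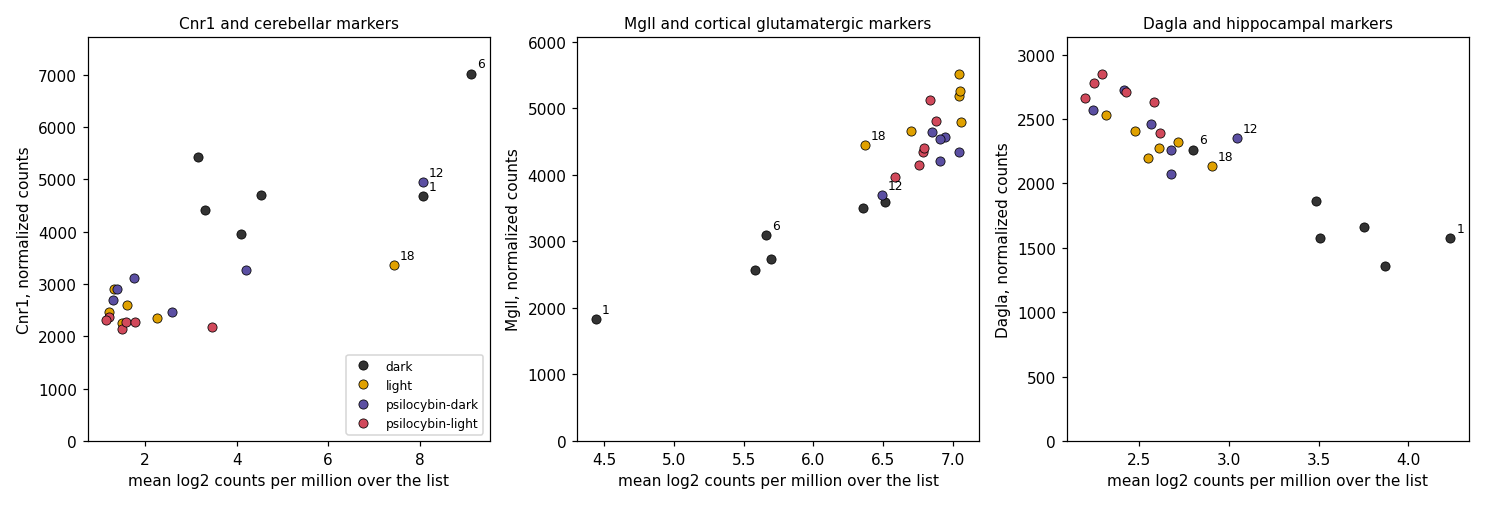
Normalized counts (y axes) of Cnr1, Mgll and Dagla in 24 libraries against the mean log2 level of cerebellar, cortical glutamatergic and hippocampal markers (x axes), coloured by group, with libraries 1, 6, 12 and 18 numbered. The correlations on the log2 scale are 0.77, 0.95 and -0.93.

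Markers of the cells that carry CB1 were read beside Cnr1. Summed over 7 markers of CB1 basket cells the counts were 2476 to 5435 in dark, 5521 to 6699 in light, 4535 to 5970 in psilocybin-dark and 5903 to 6778 in psilocybin-light mice, and 2 of the 7 were higher and 2 lower in each comparison with dark. Cck, the gene for cholecystokinin and by far the most abundant of them, rose by log2 fold changes of 0.64, 0.51 and 0.75 (edgeR adjusted p = 0.00609, 0.0316 and 0.00137), and cortical glutamatergic neurons express it as well. Sncg, which in cortex marks this basket cell class, fell by 2.60, 2.82 and 2.68 (edgeR adjusted p = 0.00443, 0.00398 and 0.00293), from a dark group that spread from 11.9 normalized counts in library 6 to 421 in library 1 around a median of 25.5. Of 4 general GABAergic markers, 2 were lower and 2 not called in each of the 3 comparisons, and the glutamate decarboxylase gene Gad2, one of those lower, was at -0.29, -0.20 and -0.31 (edgeR adjusted p = 3.99e-04, 0.0111 and 1.65e-04). Cnr1 correlated with the basket cell score at -0.16 and with the GABAergic score at 0.73 over the 24 libraries.

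The wider pathway was read from a list of 35 other genes, of which 28 were tested. In light mice 7 were higher and 6 lower than in dark, in psilocybin-dark mice 7 and 5, and in psilocybin-light mice 8 and 7, where 31.9%, 24.7% and 38.4% of all genes were called, with medians of -0.03, 0.02 and 0.01. Among the 11 genes upstream of diacylglycerol lipase, 3 were called in all 3 comparisons with dark, a count for which the share of all genes was not taken. The muscarinic receptor gene Chrm3 rose by 0.96, 1.01 and 1.06 (edgeR adjusted p = 2.51e-04, 2.65e-04 and 6.17e-05), the phospholipase C gene Plcb1 by 0.44, 0.58 and 0.57 (edgeR adjusted p = 0.0134, 0.00269 and 0.00167), and the serotonin receptor gene Htr2c fell by 2.26, 2.55 and 2.51 (edgeR adjusted p = 6.73e-05, 4.25e-05 and 1.65e-05). Htr2c ranged from 337 (library 6) to 2123 in dark mice, so the single dark library low in amygdala and hypothalamus markers lay among the 145 to 467 of the other groups. Htr2a, the receptor through which psilocin is thought to act in cortex, was at 0.01, 0.40 and 0.33 against dark and was not called (edgeR adjusted p = 0.983, 0.172 and 0.221).

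Among 9 further genes for the synthesis of N-acylethanolamines, 7 were tested and 3 were called in all 3 comparisons, again without a share of all genes. Plaat1, an acyltransferase that makes the precursor lipid, rose by 1.10, 0.97 and 1.25 without overlap with the dark group, as for 5.59%, 3.13% and 8.28% of all genes (edgeR adjusted p = 5.73e-06, 3.54e-05 and 7.39e-07), from a mean of 218 normalized counts to 467, 429 and 518. Gdpd1, a lysophospholipase D, fell by 0.21, 0.18 and 0.34 (edgeR adjusted p = 0.00147, 0.00771 and 8.62e-06). Of 5 other breakdown genes 3 were tested. Ptgs2, the cyclooxygenase that oxygenates 2-arachidonoylglycerol and anandamide and is known as a gene induced by neuronal activity, rose by 1.35, 1.63 and 1.33 without overlap with dark, against the same shares of all genes (edgeR adjusted p = 0.00119, 3.63e-04 and 0.001). Naaa, a lysosomal amidase, rose by 0.36, 0.25 and 0.32 (edgeR adjusted p = 0.00202, 0.0289 and 0.00380).

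The carriers and partners showed both directions. Fabp7, a lipid carrier of astrocytes and their precursors, fell by 1.44, 1.18 and 2.03 (edgeR adjusted p = 1.21e-04, 0.00113 and 2.46e-06), while Fabp3, a carrier of neurons, rose by 0.47, 0.40 and 0.45 (edgeR adjusted p = 1.32e-04, 8.83e-04 and 1.53e-04). Of 3 genes whose proteins bind CB1, the sorting protein gene Gprasp1 fell by 0.39, 0.32 and 0.29 (edgeR adjusted p = 0.00365, 0.0179 and 0.0189), and Cnrip1 and Sgip1 were not called. For Gprasp1 the groups overlapped in each comparison, and the exact permutation p was 0.0173, 0.0606 and 0.0758. Of 4 further receptors, Cnr2, Gpr119 and Trpv1 did not reach 30 counts in any library, and Gpr55 was tested and not called. In psilocybin-light against light mice 0 of the 28 genes were called by edgeR, where 0.608% of all genes were called. In psilocybin-light against psilocybin-dark mice 3 of the 28 were lower, where 3.78% of all genes were.

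**Figure D5:**
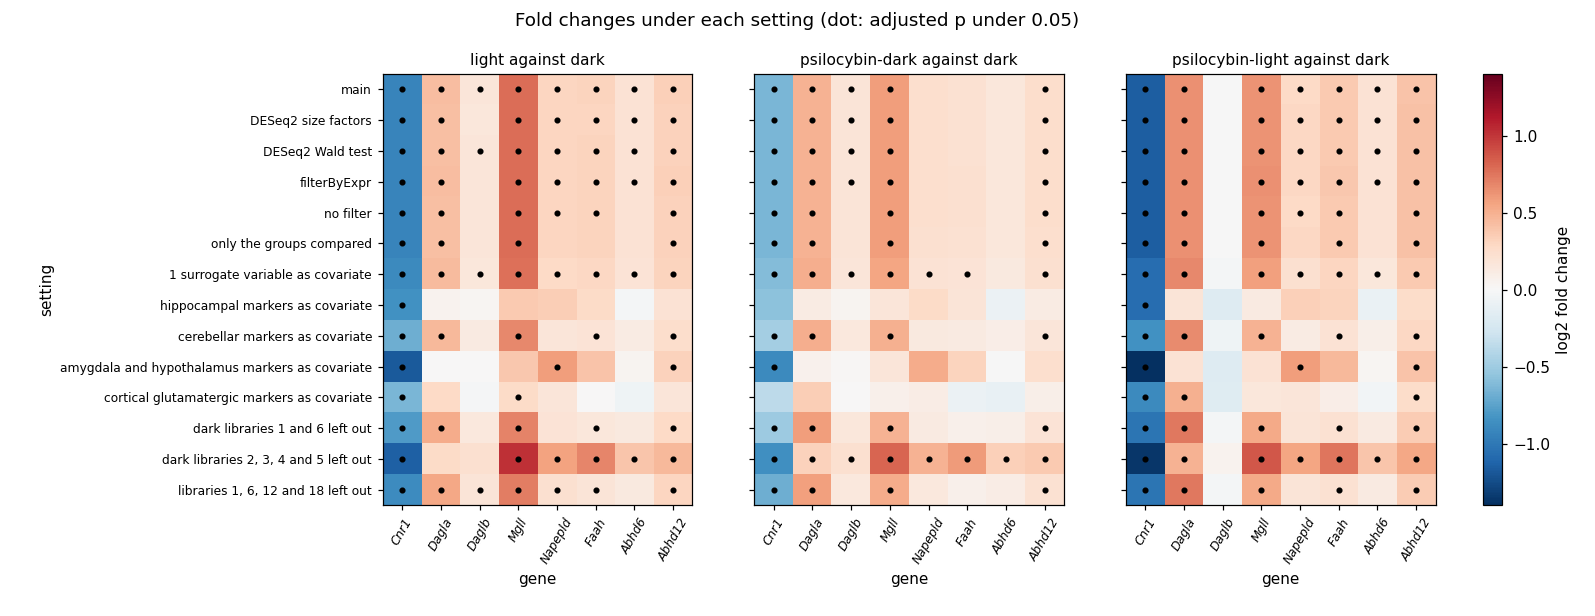
Log2 fold change (colour) of each gene (x axis) in the 3 comparisons with dark under each setting that kept the groups of the headings (y axis), with a dot where the adjusted p was under 0.05. Cnr1 is blue throughout and is the only gene with a dot in light and psilocybin-light mice when hippocampal markers are a covariate, whereas Abhd6 changes sign with the hippocampal and the cortical glutamatergic covariates.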

How the data were processed

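RNA from the visual cortex of 24 mice was enriched for poly-A RNA and sequenced, 1 library per mouse. The authors trimmed reads with cutadapt, aligned them using STAR and used HTSeq to count reads for each gene. The methods name GRCm39 and the submitters' processing notes mm10, and versions, annotation release and strand setting are not given in the sources used here. The deposited values are raw counts of 55414 genes, before normalization.

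Differences were tested with edgeR 4.0.16 (R 4.3.3) on the 14464 genes that reached 30 counts in some library, with TMM scaling, a quasi-likelihood model with 1 term per group over all 24 libraries, and Benjamini-Hochberg adjustment over all genes tested at 0.05. The common biological coefficient of variation was 0.182. Normalized counts were set to an effective library size of 16058300, the mean over libraries, and log2 values used a prior count of 2 (0.5 for the ratio). Single values were tested by two-sided exact permutation of 6 against 6 mice (924 splits, smallest p 0.00216). P-values measure the spread between these mice. Within groups the counts of all 60 pairs of libraries differed by more than sampling noise (lowest chi-square per degree of freedom 3.02). The fit was tested on simulated data. Names, positions and exon lengths came from GENCODE vM39, and promoter windows from RefSeq.

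Named genes were all 8 members of the group, the 2 genes with the smallest p among those called in each pathway list, and the 3 most alike by correlation, a few of which are not reported here. Plcb1, Htr2a, Gpr55, Cnrip1, Sgip1 and the marker genes of CB1 basket cells and GABAergic neurons named singly were picked after their values were seen. The group of genes, the lists and the settings were chosen with earlier results of these data known. Alternatives were DESeq2 1.42.0, its size factors, other filters, only the groups compared, 1 surrogate variable (sva 3.50.0), hippocampal markers as a covariate, the labels' light exposure, an adjusted p of 0.01 and leaving out libraries. Covariates of cerebellar, amygdala and hypothalamus, and cortical glutamatergic markers, and the fits without libraries 1, 6, 12 and 18, were added after seeing the data.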

Additional observations from a re-analysis of the deposited data

Results flagged for a closer look

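Among 32 sets of 6 normalized counts (8 genes in 4 groups), 5 had a highest or lowest library whose gap to the nearest other exceeded Dixon's 95% critical value as a share of the range. Chance alone exceeds it in about 1 in 20 sets. Cnr1 was high in psilocybin-dark library 12 (4944), while the other 5 libraries of that group reached 3259. Library 12 is also the highest of its group in cerebellar markers, at 41170. Light library 18, the highest of its group in the same markers at 26102, was low for Faah (1568) and Abhd12 (4715). Faah was low in psilocybin-light library 23 (1553), and Napepld was high in psilocybin-light library 21 (515.4). The part of tissue mixture in these values was not tested.

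The interaction of light and psilocybin, a test of whether the difference between light and dark was the same with vehicle and with psilocybin, was called for Mgll (-0.74) and Daglb (-0.36). Both calls were lost with hippocampal (-0.42 and -0.24), amygdala and hypothalamus (-0.35 and -0.20) or cortical glutamatergic markers (-0.18 and -0.16) as a covariate. The hippocampal covariate left no called interaction in any gene tested.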

How the results depend on the processing

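Over 776 gene values under the other settings, 590 kept their direction and their side of the threshold, 84 were no longer called, 33 became called, 32 turned direction with a call in at least 1 of the 2 fits and 37 turned sign with a call in neither. The causes were not tested. With the labels' light exposure, which exchanges the groups, 8 genes were called in light against dark with every sign turned (Cnr1 0.92, Dagla -0.43, Daglb -0.17, Mgll -0.79, Napepld -0.30, Faah -0.31, Abhd6 -0.21, Abhd12 -0.33), 0 in psilocybin-dark against dark (Daglb -0.18, Mgll -0.16), 0 in psilocybin-light against dark (Cnr1 0.28, Mgll -0.20, Napepld -0.069, Faah -0.092, Abhd6 -0.049, Abhd12 -0.090), 5 in psilocybin-light against light (Daglb 0.18, Mgll 0.59), 1 in psilocybin-light against psilocybin-dark (Cnr1 0.52), 7 in psilocybin-dark against light (Cnr1 -1.16, Mgll 0.63, Napepld 0.28, Faah 0.36, Abhd6 0.20, Abhd12 0.40) and 2 in the interaction (Daglb 0.36, Mgll 0.74).

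In light against dark, 4 genes were called with only the groups compared, 1 with hippocampal, 5 with cerebellar, 3 with amygdala and hypothalamus and 2 with cortical glutamatergic markers as a covariate, 5 without dark libraries 1 and 6 and 5 at an adjusted p of 0.01, where in the same order 21.4%, 4.34%, 35.0%, 10.3%, 19.8%, 39.6% and 19.7% of all genes were called. In psilocybin-dark against dark the counts were 0, 1 and 0 with hippocampal, amygdala and hypothalamus, and glutamatergic markers, and 8 without dark libraries 2 to 5, where 0%, 0.671%, 6.18% and 41.2% of all genes were called. In psilocybin-light against dark they were 1, 3 and 3 with the same covariates, where 4.38%, 15.4% and 23.9% of all genes were called. In psilocybin-light against psilocybin-dark the 1 call became 2 with DESeq2, only the groups compared, hippocampal or glutamatergic markers, or without dark libraries 2 to 5, became 3 with the surrogate variable, cerebellar markers, without dark libraries 1 and 6 or without libraries 1, 6, 12 and 18, and 0 with no filter or at 0.01, while the share of all genes called ran from 1.46% with no filter to 17.2% without libraries 1, 6, 12 and 18. In psilocybin-dark against light 1 was called with glutamatergic markers, as were 3.17% of all genes. The interaction had 1 call with no filter or at 0.01, 4 with the surrogate variable, 0 with hippocampal, amygdala and hypothalamus, or glutamatergic markers, 6 without dark libraries 2 to 5 and 5 without libraries 1, 6, 12 and 18, while the share of all genes ran from 0% with hippocampal markers to 28.0% without dark libraries 2 to 5. Abhd6 turned with hippocampal markers (-0.031 in light, -0.089 in psilocybin-light mice) and, with Daglb (-0.014 in light), with glutamatergic markers (-0.056 and -0.042). The log2 ratio of Dagla to Mgll without dark libraries 1 and 6 was -0.17 in light against dark and 0.20 in psilocybin-light against dark, and -0.18 and 0.20 without libraries 1, 6, 12 and 18.

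Leaving out 1 library at a time gave 5 to 8 calls in light, 4 to 7 in psilocybin-dark and 6 to 7 in psilocybin-light mice against dark, 0 to 2 in psilocybin-light against psilocybin-dark mice, 2 to 3 in the interaction and 0 in the other comparisons. The ratio ranged from -0.44 to -0.27 in light against dark, from -0.19 to -0.01 in psilocybin-dark against dark, from -0.07 to 0.10 in psilocybin-light against dark, from 0.32 to 0.39 in psilocybin-light against light, from 0.05 to 0.15 in psilocybin-light against psilocybin-dark and from 0.21 to 0.32 in psilocybin-dark against light. No paired analysis was possible because each library has a number of its own and no number is shared between groups.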
